A study of Drosophila melanogaster with 14 samples.

Results

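The 8 Hox genes of *Drosophila melanogaster* were followed across mRNA-Seq libraries of embryos lacking the *spalt* genes and of their controls. The genes are *labial* (*lab*, CG1264), *proboscipedia* (*pb*, CG31481), *Deformed* (*Dfd*, CG2189), *Sex combs reduced* (*Scr*, CG1030) and *Antennapedia* (*Antp*, CG1028) of the Antennapedia complex, and *Ultrabithorax* (*Ubx*, CG10388), *abdominal-A* (*abd-A*, CG10325) and *Abdominal-B* (*Abd-B*, CG11648) of the bithorax complex. They were taken by their gene identifiers and not by any measured value. All 8 were among the 13781 genes of the deposited table and among the 11530 genes with enough reads to be tested. All lie on chromosome 3R, whereas the deletion studied here is on another chromosome.

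Each of the 14 libraries came from a pool of 50 whole embryos, and poly-A RNA was sequenced. Embryos homozygous for the deficiency *Df(2L)32FP-5* (Ho) lack both *spalt major* (*salm*) and *spalt-related* (*salr*), 2 zinc finger transcription factor genes, and were picked from a stock balanced over *CyO-GFP* by the absence of green fluorescence. Heterozygous embryos (He, *Df(2L)32FP-5/+*) came from females of that stock crossed with *white* males, and wild type embryos (WT) came from Oregon R, so strain background and genotype cannot be told apart. Ho, He and WT embryos were collected at stage 17, around 16 hours of development, and at stage 16, at 13 to 14 hours, with 3 Ho, 2 He and 2 WT libraries at each stage. The titles give stage 17 for 7 libraries whose stage field gives stage 16, and the titles were followed. Letters name different experiments for each genotype, a, b and c for Ho, and c or ab for He and WT. Here ab stands for grouped technical replicates. Whether a letter is the same experiment in different genotypes is not given in the sources used here.

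Hox genes encode homeodomain transcription factors that give the segments of the body their identities. They are arranged along the chromosome in nearly the order in which they act along the embryo, with *lab*, *pb* and *Dfd* acting in the head, *Scr* in the labial and first thoracic segments, *Antp* and *Ubx* mainly in the thorax and anterior abdomen, and *abd-A* and *Abd-B* in the abdomen. Late in embryogenesis their RNA is found in the epidermis, the central nervous system, the mesoderm and the midgut, where they also direct the fate and survival of neurons. Because whole embryos were pooled, fewer cells expressing a gene and less RNA per cell cannot be told apart here.

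Depth ran between 4746288 reads on genes in Ho16a and 23187304 in WT17c. The check of genotypes gave 0 to 96 reads of *salm* in Ho libraries against 768 to 2651 in He and WT libraries, and 0 to 19 reads of *salr* against 603 to 1660. These deleted genes had Ho minus WT differences of -6.34 and -6.53 on the log2-like deposited scale, averaged over the stages. Even so, their adjusted p-values of 0.0029 and 0.0017 (limma, Benjamini-Hochberg adjustment) did not reach the threshold of 0.001 used by the study and kept here. All 32 marker genes of neurons, glia, somatic muscle, epidermis and fat body or hemocytes were detected and tested. A count of 0 reads in *Cpr65Ax1*, *Fbp1* or *Hml* in some library was the exception to their presence in every library.

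Levels were compared between genes as reads per kb of exon per 1000000 reads on genes, with exon lengths from a Release 6 annotation. *abd-A*, which specifies abdominal segments, had the highest median of the 14 libraries, 28.3. *lab*, the most anterior gene of the group and also a midgut regulator, had a median of 15.4, and *Ubx*, which specifies the haltere-bearing segment, one of 14.5. *Scr* followed with 10.5, *Antp* with 8.99, *Abd-B*, the gene of the posterior abdomen and genital segments, with 7.13, *Dfd*, a gene of the mandibular and maxillary segments, with 5.91, and *pb*, needed for adult mouthparts, with 3.02. Among neighbours in this order, *abd-A* was above *lab* in 13 of 14 libraries, and *Ubx* above *Scr* and *Dfd* above *pb* in all 14. *lab* and *Ubx* could not be ranked, since *lab* was above *Ubx* in 7 of 14 libraries. *Scr* was above *Antp* in 11 of 14, *Antp* above *Abd-B* in 11 of 14, and *Abd-B* above *Dfd* in 10 of 14, so these neighbours overlapped. *Antp* shares exon sequence with CG46458 on the same strand and *Ubx* with an antisense RNA, asRNA:PS4, in the Release 6 annotation, and whether reads were counted by strand is not given in the sources used here.

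**Figure D1:**
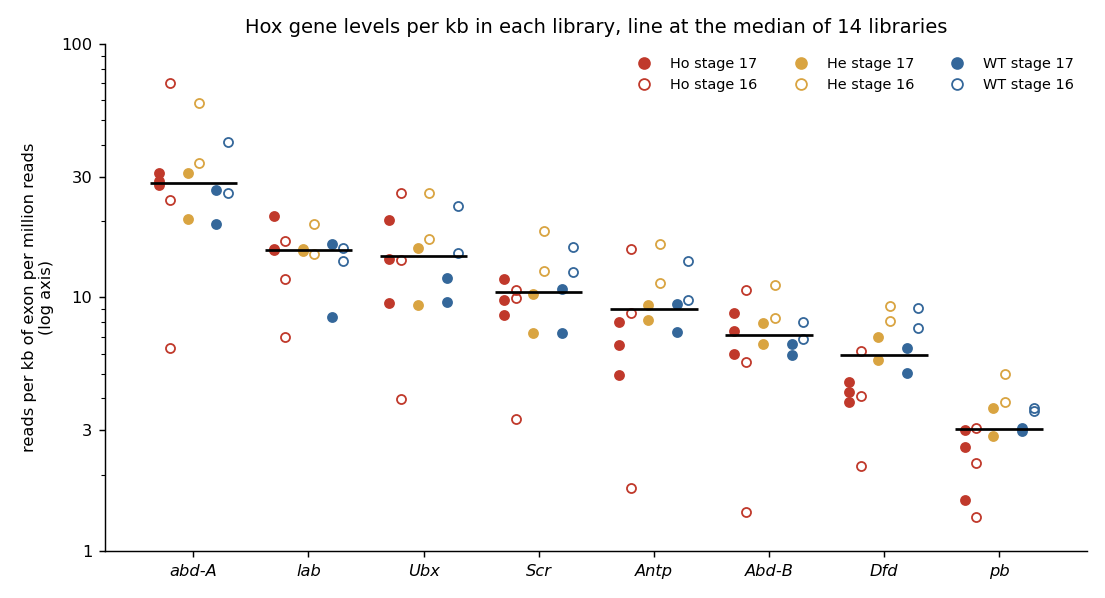
Level of each Hox gene as reads per kb of exon per 1000000 reads (log axis), with 1 point for each of the 14 libraries, filled for stage 17 and open for stage 16, and a line at the median. *abd-A* lies highest with a median of 28.3 and *pb* lowest with 3.02. The lowest open point of every gene is the library Ho16a.

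Together the 8 genes took 481, 430 and 527 reads per 1000000 reads (CPM) in Ho17a, Ho17b and Ho17c, 400 and 532 CPM in He17ab and He17c, and 384 and 452 CPM in WT17ab and WT17c. At stage 16 they took 130, 434 and 865 CPM in Ho16a, Ho16b and Ho16c, 602 and 864 CPM in He16ab and He16c, and 504 and 681 CPM in WT16ab and WT16c. Ho16a was the lowest of all, and Ho16c and He16c were highest at nearly the same sum. In the mean of the 8 genes on the deposited scale, each centred over the 14 libraries, He16c was highest with 0.74, against 0.51 in Ho16c.

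The same spread showed in single genes. *abd-A* had 164 reads in Ho16a and 6920 in He16c. The deposited scale is log2-like and normalized for depth. On it the 14 libraries spanned 3.94 for *abd-A*, 3.41 for *Antp*, 3.16 for *Abd-B*, 2.88 for *Ubx* and 2.44 for *Scr*. The span was narrower for *lab* (1.80), *Dfd* (1.69) and *pb* (1.39). A unit of this scale is not 1 doubling of reads. Within He16c the gap between *abd-A* (6920 reads, 11.32) and *Scr* (1816 reads, 8.81) exceeded that of their log2 reads. Within Ho16, the standard deviation over 3 libraries had a median of 1.13 across the 8 genes, against 0.896 across all tested genes. It was between 0.167 and 0.469 across the 8 genes in the other 5 conditions. Ho16a was below Ho16b and Ho16b below Ho16c for 7 of the 8 genes, all but *Dfd*, an order seen in 25.5% of all tested genes. Ho16a was the lowest of the 14 libraries for 7 of the 8 genes, all but *lab*, and for 24.9% of all tested genes.

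**Figure D2:**
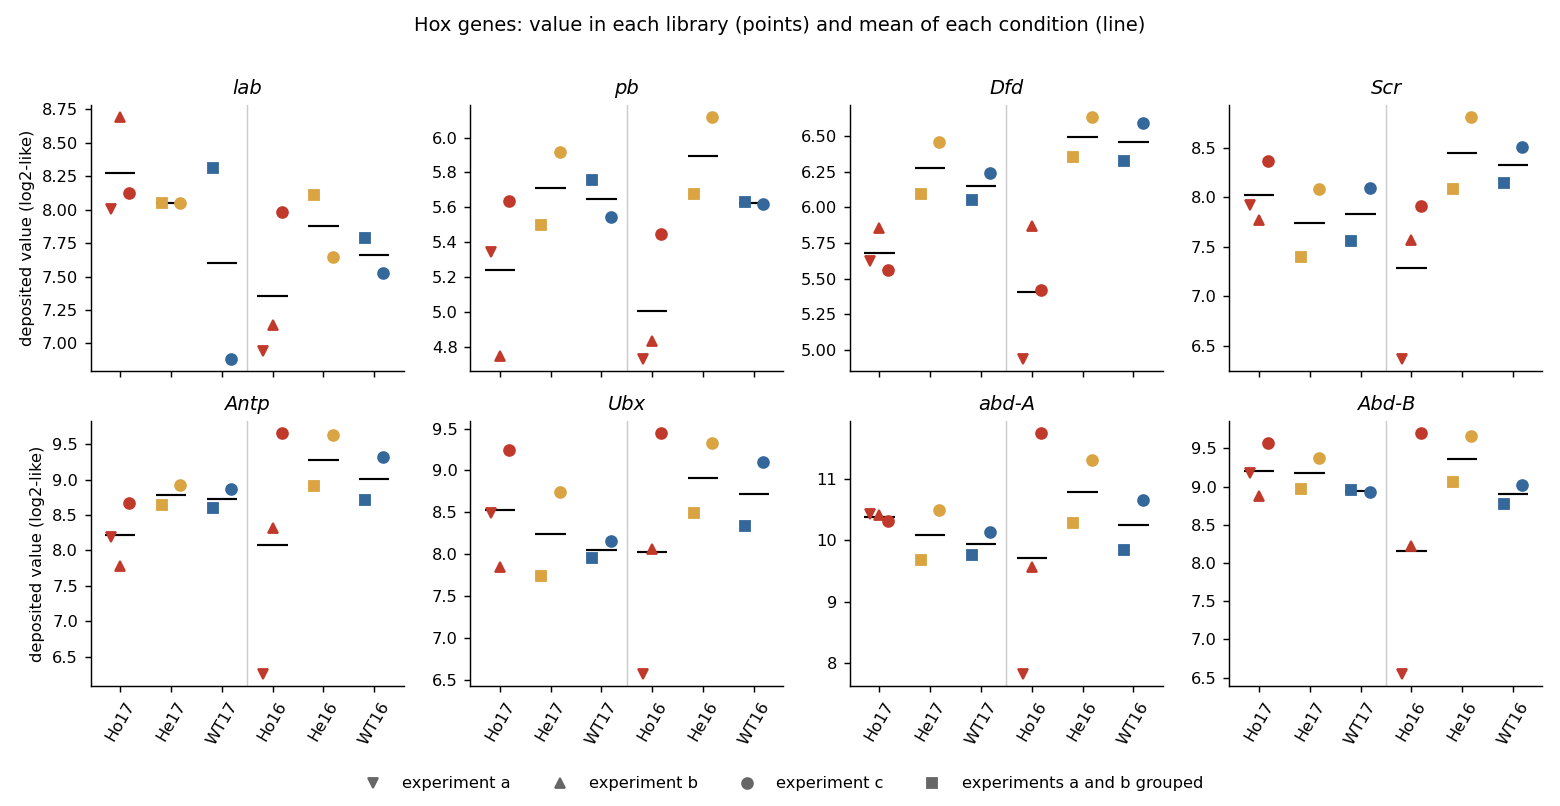
Deposited value (log2-like scale) of each Hox gene in each library, by condition, with a line at the mean of the condition. Each panel has its own axis. *Antp*, *Ubx*, *abd-A* and *Abd-B* have Ho16a at the bottom and Ho16c at or near the top, whereas the 6 Ho points of *Dfd* all lie below the 8 He and WT points.

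Ho16a, Ho16b and Ho16c also differed from the other stage 16 libraries in how their values varied with the length of the gene. The deviation of each gene from the median of the other 6 stage 16 libraries had a Spearman correlation with exon length of -0.53 in Ho16a, -0.35 in Ho16b and 0.25 in Ho16c, across 11442 genes, which are not independent replicates. In Ho16a the 25% of genes with the shortest exons had a median deviation of 0.83, the 25% with the longest exons one of -1.04, and the 8 Hox genes one of -1.98. In Ho16c these medians were -0.57, 0.27 and 0.60. With exons of 2739 bases in *Dfd* up to 11791 bases in *Abd-B*, 6 of the 8 Hox genes belonged to the longest 25%, *Dfd* and *lab* being the others. Depth also differed, with 4746288, 6041488 and 15259795 reads in Ho16a, Ho16b and Ho16c, and 4514 genes had no reads in Ho16c. The part of gene length and depth in the values of the Hox genes was not tested.

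**Figure D3:**
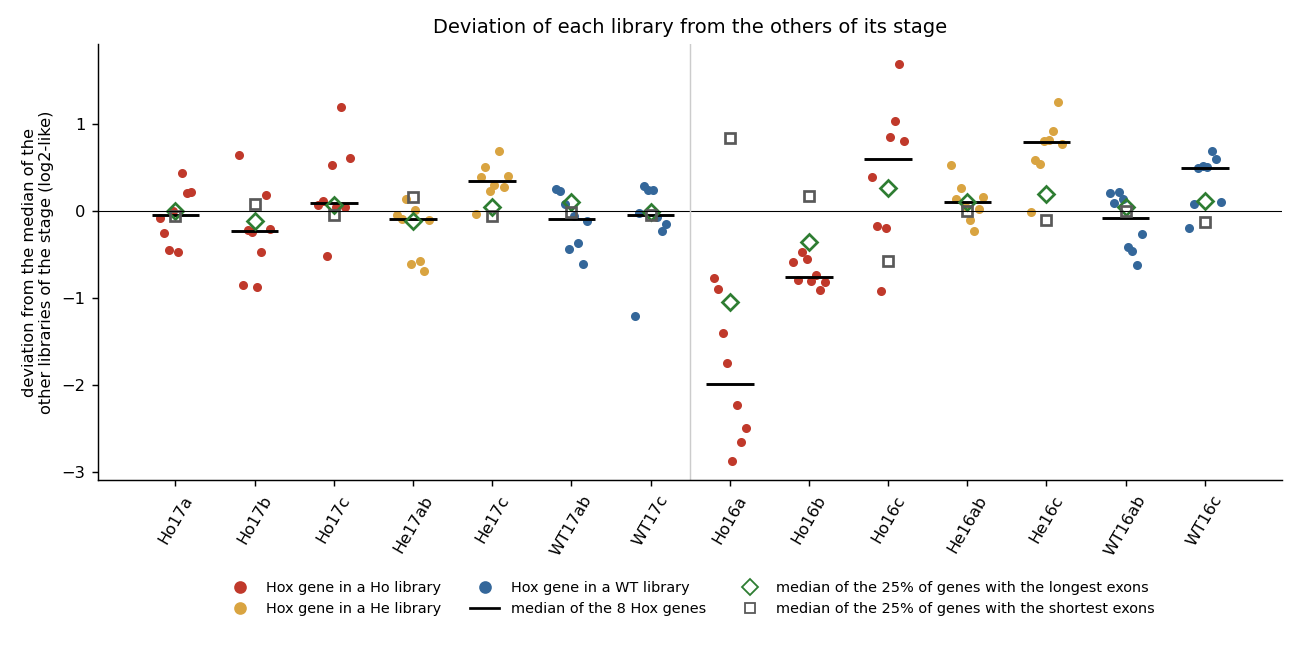
Deviation of each library from the median of the other 6 libraries of its stage (log2-like scale), for the 8 Hox genes (points, in the order *lab* to *Abd-B* within each library) with their median (line), beside the medians of the 25% of genes with the longest exons (diamonds) and the 25% with the shortest (squares). Ho16a stands apart, with a median of -1.98 for the Hox genes, -1.04 for long genes and 0.83 for short genes.

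A second difference lay between the letters c and ab. In all 4 conditions of He and WT, library c had a higher value than library ab for *Dfd*, *Scr*, *Antp*, *Ubx* and *abd-A*, which was so for 13% of all tested genes. For *abd-A* this excess of c over ab was 0.38 to 1.04 on the log2-like scale, and for *Ubx* it was 0.20 to 1.0. *lab* went the other way or not at all, with differences between -1.42 and 0.01. Since c and ab occur at both stages and in both genotypes, this difference adds to the spread within each condition. Library c was also the deeper one in each condition, with 21648062 to 23187304 reads on genes against 12887566 to 17351064. Its correlation of deviations with exon length was higher than that of ab in He16, WT16 and He17, and not in WT17 (0.04 against 0.07). The parts of experiment, depth and length in this difference were not tested.

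*Scr*, *Antp*, *Ubx*, *abd-A* and *Abd-B* varied together over the 14 libraries. The 10 pairs among these 5 genes had Pearson correlations between 0.81 and 0.91. After the mean of each condition was taken out they lay between 0.86 and 0.99, and without Ho16a and Ho16c between 0.49 and 0.91, over 12 libraries. *lab* stood outside this group, with correlations between 0.10 and 0.54 to the other 7 genes, as described over the same 14 libraries. These libraries share depth, length dependence and experiment, and the correlations are descriptions of them.

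The 5 other tested genes whose profile over the 14 libraries was most like the mean profile of the Hox genes were *mahe* (Pearson r = 0.97), *Oatp30B* (0.96), *mub* (0.96), *hth* (0.96) and *E(bx)* (0.96). Without Ho16a and Ho16c, over 12 libraries, these correlations were 0.85 to 0.89. All 5 genes belong to the longest 25%, with exon lengths between 5581 and 12718 bases. *hth*, *homothorax*, encodes a homeodomain cofactor that binds DNA with Hox proteins, and *E(bx)* encodes a subunit of a chromatin remodelling complex that was first found through its effect on *bithorax* alleles.

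Stages 17 and 16 were compared to ask how transcription changed at this transition in each genotype. Averaged over Ho, He and WT, none of the 8 Hox genes passed the threshold, whereas 15.2% of all tested genes did, 12.2% with higher and 3.02% with lower values at stage 17 (limma, adjusted p under 0.001). Of these calls 80.1% were higher at stage 17, and 56.0% after removal of the length trend, which moved the median of all genes to -0.35. At an adjusted p under 0.05 it was 0 of 8 Hox genes against 35.7% of all genes, 23.1% higher and 12.6% lower. At an unadjusted p under 0.05 the counts were 0 of 8 Hox genes and 43.7% of all genes. TMM factors with voom weights also called 0 Hox genes, against 15.5% of all genes. The differences ran from -0.28 for *Ubx* to 0.34 for *lab*, with a median of -0.10 against 0.01 over all genes. The 95% intervals reached 0.50 to 1.06 to either side of the estimates, so changes of this size were not detectable with these libraries.

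Within genotypes, the Hox genes had estimates of unlike direction. In Ho, all 8 had higher means at stage 17, but 7 with TMM factors and voom weights and 4 after removal of the length trend. The estimates ran between 0.14 for *Antp* and 1.05 for *Abd-B*, with a median of 0.59 against 0.13 over all genes, and after removal of the length trend the median was -0.01 against -0.34. Without Ho16a 5 of 8 were higher, with a median of 0.07 against 0.20 over all genes, and without Ho16c 8 of 8, with a median of 1.13 against -0.01. In He, 7 of 8 had lower means, between -0.71 for *abd-A* and 0.17 for *lab*, and in WT 6 of 8, or all 8 with voom or after removal of the length trend, between -0.66 for *Ubx* and 0.05 for *Abd-B*. None of the 8 was called in any genotype, against 7.98% of all tested genes in Ho, 3% in He and 3.37% in WT (limma, adjusted p under 0.001), nor at an adjusted p under 0.05, against 27.3%, 11.5% and 13.3% of all genes in Ho, He and WT. At an unadjusted p under 0.05 there were 1 of 8 in Ho, 0 in He and 0 in WT. The shares over all genes were 38.5%, 21.7% and 24.4%. Voom called 0 Hox genes in each genotype, against 3.59%, 2.32% and 2.24% of all genes in Ho, He and WT. An exact negative binomial test on recovered reads also called 0 Hox genes, against 11.4%, 16.8% and 18.1%. The contrast of the stage difference in Ho with that in WT was positive for all 8, 7 without Ho16a and 6 after removal of the length trend, between 0.21 for *pb* and 1.24 for *Scr*, but every adjusted p was at least 0.982 (limma, Benjamini-Hochberg adjustment). It called 0% of all tested genes, or 0.00867% at an adjusted p under 0.05. An unadjusted p under 0.05 was found for 0 of the 8, against 4.2% of all genes.

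*lab* came nearest to the threshold between stages. It had values of 8.01, 8.69 and 8.12 in Ho17a, Ho17b and Ho17c, against 6.94, 7.14 and 7.98 in Ho16a, Ho16b and Ho16c. The Ho groups did not overlap, as in 22.1% of all tested genes with higher values in Ho17. The difference was 0.92 on the log2-like scale (95% interval 0.03 to 1.81, adjusted p = 0.120 with limma and Benjamini-Hochberg adjustment). It was 1.13 without Ho16a and Ho16c, which left Ho16b as the only Ho16 library, and 0.59 after removal of the length trend. In He the values of *lab* were 8.05 and 8.05 in He17ab and He17c against 8.11 and 7.64 in He16ab and He16c, and in WT they were 8.31 and 6.89 in WT17ab and WT17c against 7.79 and 7.52 in WT16ab and WT16c. WT17c was the lowest *lab* value of the series, 1.42 below the other WT17 library, and without it the WT difference was 0.65 in place of -0.06.

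*Scr*, which specifies the labial segment and the salivary glands, was the gene nearest to the threshold in He and in WT. Its values were 7.39 and 8.08 in He17ab and He17c, against 8.08 and 8.81 in He16ab and He16c, a difference of -0.71 (95% interval -1.83 to 0.42, adjusted p = 0.509 with limma). In WT they were 7.56 and 8.09 in WT17ab and WT17c, against 8.14 and 8.51 in WT16ab and WT16c, a difference of -0.50 (adjusted p = 0.656 with limma). Each He17 value lay just below both He16 values, a separation found in 29.9% of tested genes, and each WT17 value below both WT16 values, found in 28.4%. In Ho, by contrast, *Scr* had 7.92, 7.76 and 8.37 at stage 17 against 6.37, 7.56 and 7.92 at stage 16.

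*Dfd* and *Ubx* were the other genes whose WT17 values lay below both WT16 values. *Ubx* had 7.95 and 8.15 in WT17ab and WT17c, against 8.33 and 9.10 in WT16ab and WT16c, and 7.74 and 8.74 in He17ab and He17c, against 8.49 and 9.33 in He16ab and He16c. Within each experiment letter of He and WT, stage 17 was below stage 16 in all 4 cases for *Dfd*, *Scr*, *Antp*, *Ubx* and *abd-A*, a pattern shared by 27.8% of tested genes. For *Ubx* these 4 differences ran from -0.95 to -0.38, and for *Dfd* from -0.35 to -0.17.

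In Ho the stage differences of *Antp*, *Ubx* and *abd-A* reversed in direction without Ho16a, and that of *Abd-B*, the widest of the 8, was smaller. With Ho16a kept, *Antp* also reversed without Ho17c (-0.092), with voom (-0.16), with library quality weights (-0.035) and in the exact test (-0.21). *abd-A* also reversed in the exact test (-0.0045). *abd-A* had 10.44, 10.41 and 10.32 in Ho17a, Ho17b and Ho17c, against 7.82, 9.57 and 11.75 in Ho16a, Ho16b and Ho16c. The Ho17 libraries were within 0.12 of each other and fell inside the 3.94 spanned by Ho16. The difference of 0.68 was -0.27 without Ho16a and 1.70 without Ho16c (adjusted p = 0.0152 with limma). *Abd-B* had 9.18, 8.88 and 9.57 in Ho17, against 6.54, 8.22 and 9.70 in Ho16. Its difference of 1.05 was 0.25 without Ho16a, 1.83 without Ho16c (adjusted p = 0.0052 with limma) and -0.07 after removal of the length trend. For *Antp* and *Ubx* the differences of 0.14 and 0.50 were -0.78 and -0.23 without Ho16a, and -0.76 and 0.02 after removal of the length trend.

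**Figure D4:**
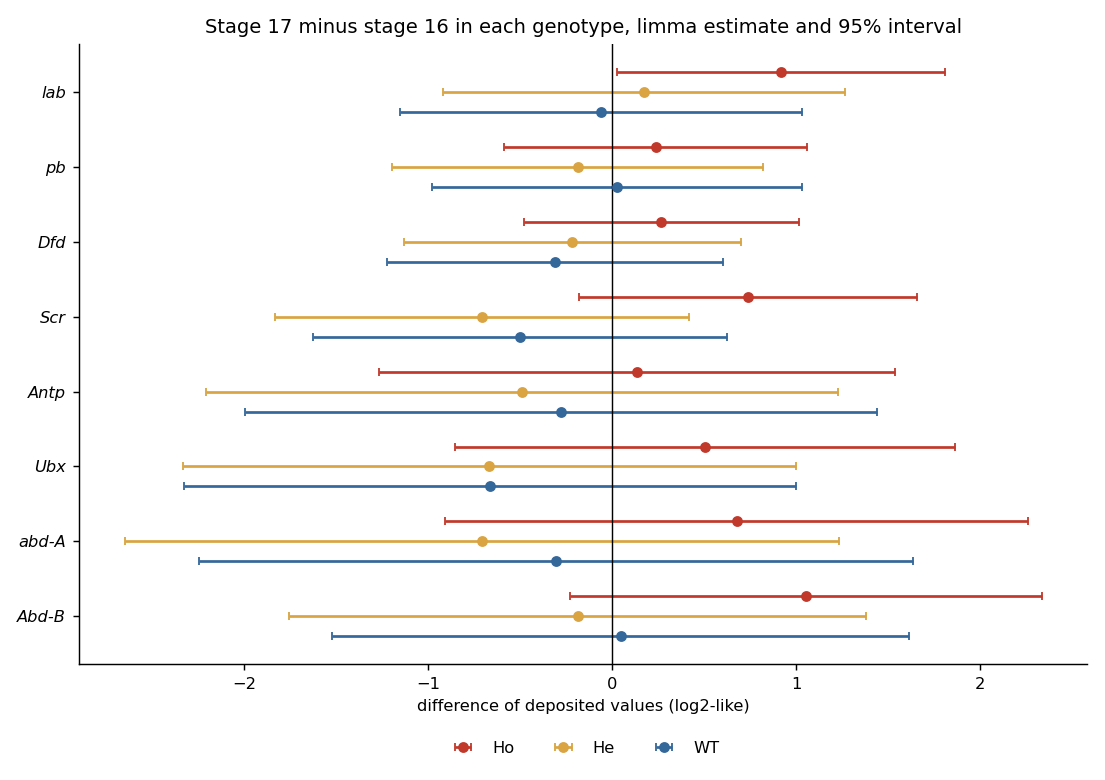
Stage 17 minus stage 16 for each Hox gene in Ho, He and WT, as limma estimates with 95% intervals (difference of deposited values, log2-like scale). The Ho estimates lie between 0.14 and 1.05 and most He and WT estimates below 0. The interval that excludes 0 is that of *lab* in Ho.

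Ho was compared with WT, and with He, to ask which transcripts depended on *spalt* function. None of the 8 Hox genes was called in Ho against WT averaged over the stages, where 0.026% of all tested genes were, nor at stage 17 or at stage 16, where 0.00867% were in each case, nor in Ho against He, where 0% were (limma, adjusted p under 0.001). At an adjusted p under 0.05 there was again none, against 0.598% of all genes in Ho against WT, 0.165% at stage 17, 0.0954% at stage 16 and 0.0694% in Ho against He. At an unadjusted p under 0.05 there was 1 of 8 in Ho against WT, against 10.1% of all genes, 0 of 8 at stage 17, against 8.14%, 2 of 8 at stage 16, against 6.62%, and 2 of 8 in Ho against He, against 5.65%. The voom fit called 0 in each comparison, but also 0% of all tested genes, so it could not set the Hox genes apart. The exact negative binomial test called 0 at stage 17, against 2.64% of all genes, and 0 at stage 16, against 2.06%. Averaged over the stages, 7 of 8 genes had lower means in Ho than in WT, 5 with voom and 4 after removal of the length trend, with a median difference of -0.33 against -0.07 over all genes. Without Ho16a it was 4 of 8, with a median of -0.02, without Ho16c 7 of 8, with -0.60, and with the experiment letter as a block 3 of 8, with a median of 0.31. All 8 had lower means in Ho than in He, with a median of -0.51 against -0.08, but 6 of 8 without Ho16a, with a median of -0.20, 8 of 8 without Ho16c, with -0.82, and 4 of 8 with the block, with a median of 0.06. These comparisons share the Ho libraries. Letters a and b occur only in Ho and ab only in He and WT, so the block compares Ho with them through letter c. It assumes that letter c is the same experiment in Ho as in He and WT, which the sources do not state. Averaged over the stages, the blocked differences take only Ho16c and Ho17c from Ho.

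*Dfd*, which acts in the mandibular and maxillary segments and in subesophageal neurons, was the gene with the clearest separation. It had values of 5.62, 5.85 and 5.56 in Ho17a, Ho17b and Ho17c, 6.10 and 6.46 in He17ab and He17c, and 6.05 and 6.24 in WT17ab and WT17c. At stage 16 it had 4.94, 5.87 and 5.42 in Ho16a, Ho16b and Ho16c, 6.36 and 6.63 in He16ab and He16c, and 6.32 and 6.59 in WT16ab and WT16c. All 6 Ho libraries thus lay below all 8 He and WT libraries, as in 26 tested genes, or 0.225%. Lower values in Ho than in He and WT without overlap at each stage were found in 0.642% of tested genes, and *Dfd* was the only Hox gene among them. As CPM the groups still did not overlap within a stage, but Ho16b, with 16.9 CPM, was above He17ab with 15.5 CPM and WT17ab with 13.8 CPM. The reads behind these values were 201 to 244 in Ho17, 269 and 429 in He17, 185 and 402 in WT17, 28 to 170 in Ho16, 322 and 550 in He16, and 267 and 561 in WT16.

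Averaged over the stages the Ho minus WT difference of *Dfd* was -0.76 on the log2-like scale, with a standard error of 0.27. Its 95% interval was -1.35 to -0.17 (unadjusted p = 0.0158, adjusted p = 0.361 with limma and Benjamini-Hochberg adjustment). Against He the difference was -0.84 (95% interval -1.43 to -0.25, unadjusted p = 0.0088, adjusted p = 0.672 with limma). Neither passed the threshold. Over 24 alternative settings each difference kept its sign, between -0.95 and -0.53 against WT, with adjusted p-values of 0.145 to 0.865, and between -1.03 and -0.61 against He, with 0.137 to 1.0. At stage 17 the difference from WT was -0.47 (95% interval -1.30 to 0.37), and at stage 16 it was -1.05 (95% interval -1.88 to -0.21, adjusted p = 0.707 with limma). Without Ho16a and Ho16c, and so with Ho16b alone, the stage 16 difference was -0.59, and after removal of the length trend it was -0.90.

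The other head genes did not separate in this way. *pb* had 5.34, 4.74 and 5.64 in Ho17a, Ho17b and Ho17c against 5.75 and 5.55 in WT17ab and WT17c, and 4.73, 4.83 and 5.45 in Ho16a, Ho16b and Ho16c against 5.63 and 5.62 in WT16ab and WT16c. The groups overlapped at stage 17 and not at stage 16, where the difference was -0.62. It was -0.79 with Ho16b as the only Ho16 library and -0.36 after removal of the length trend. The difference averaged over stages was -0.51 from WT and -0.68 from He (95% interval -1.33 to -0.03, adjusted p = 0.860 with limma). *lab* had a difference from WT of 0.67 at stage 17 (95% interval -0.32 to 1.67) and of -0.30 at stage 16 (95% interval -1.30 to 0.69). The stage 16 difference was -0.10 without Ho16a, -0.52 with Ho16b as the only Ho16 library and -0.12 after removal of the length trend. Its stage 17 difference rested on WT17c, and was -0.04 without that library.

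At stage 16, all 8 genes had lower means in Ho than in WT, between -1.05 for *Dfd* and -0.30 for *lab*, with a median of -0.72 against -0.10 over all genes. *Scr* was next to *Dfd*, with 6.37, 7.56 and 7.92 in Ho16a, Ho16b and Ho16c, against 8.14 and 8.51 in WT16ab and WT16c. Its difference was -1.04 (95% interval -2.07 to -0.02, unadjusted p = 0.0469, adjusted p = 0.744 with limma). It was -0.59 without Ho16a, -0.76 with Ho16b as the only Ho16 library, and -0.69 after removal of the length trend. *pb*, *Dfd* and *Scr* were the genes without overlap, with lower values in Ho16, which was found in 10.7% of tested genes. *abd-A*, *Ubx* and *Abd-B* had differences of -0.54, -0.69 and -0.74 that were 0.41, 0.04 and 0.07 without Ho16a. *Antp* had -0.94, which was -0.02 without Ho16a, -0.69 with Ho16b as the only Ho16 library and -0.37 after removal of the length trend. Without Ho16a alone the median over the 8 genes was -0.06, with 5 of 8 lower, and without Ho16c alone -1.38, with 8 of 8. Without both Ho16a and Ho16c, which left Ho16b as the only Ho16 library, it was -0.68, with 8 of 8 lower. In Ho16b all 8 genes lay below the median of the other stage 16 libraries, with a median deviation of -0.76. After removal of the length trend the median difference from WT was -0.36, with 8 of 8 lower.

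At stage 17, 5 of 8 genes had higher means in Ho than in WT and 3 had lower means. *abd-A* had 10.44, 10.41 and 10.32 in Ho17 against 9.76 and 10.13 in WT17, and did not overlap, as in 13.5% of tested genes with higher Ho17 values. The difference was 0.44 (95% interval -1.33 to 2.22, adjusted p = 0.977 with limma), in a fit where all 6 conditions, Ho16 included, share the estimate of variance. *abd-A* in He17c, 10.50, was above all 3 Ho17 values. *Antp*, the gene of the second thoracic segment, had 8.19, 7.78 and 8.67 in Ho17 against 8.60 and 8.86 in WT17, a difference of -0.52 (95% interval -2.09 to 1.05). *Dfd* was the 1 gene with Ho17 below WT17 without overlap, against 15.9% of tested genes.

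**Figure D5:**
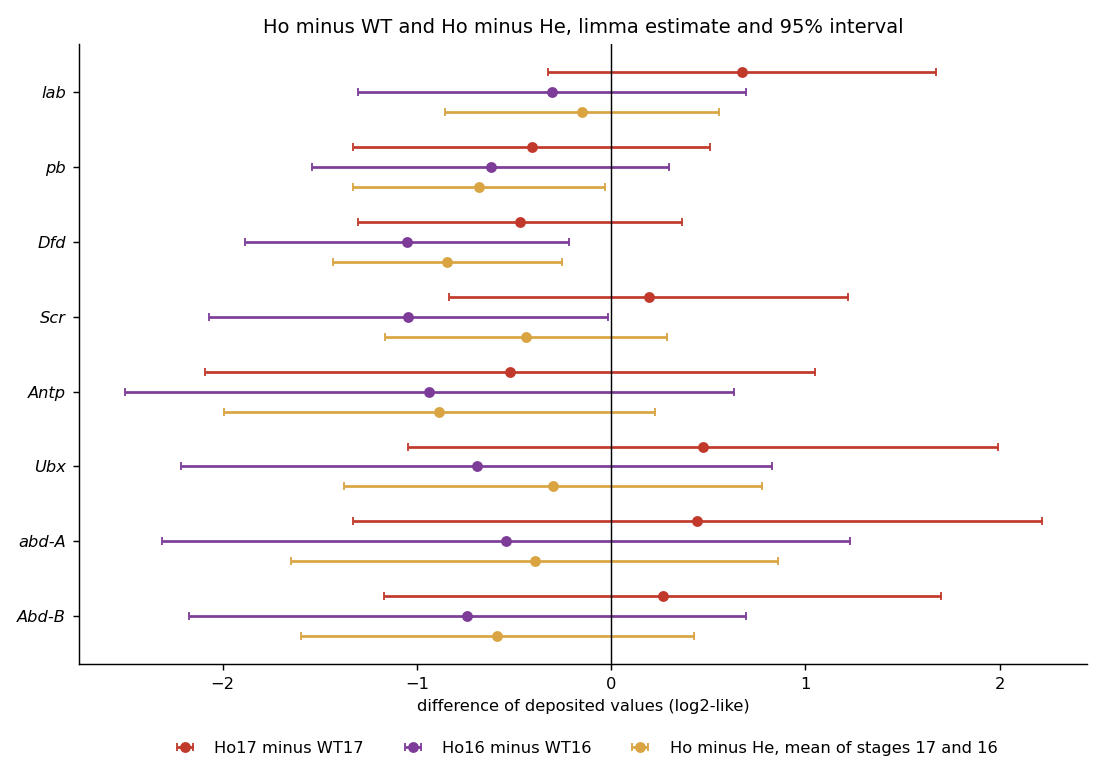
Ho minus WT at stage 17 and at stage 16, and Ho minus He averaged over the stages, for each Hox gene, as limma estimates with 95% intervals (difference of deposited values, log2-like scale). All stage 16 estimates lie below 0, between -1.05 and -0.30. The intervals of *Dfd* and *Scr* at stage 16 and of *Dfd* and *pb* against He lie below 0, and that of *Dfd* at stage 17 includes 0.

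He and WT, which differ by 1 copy of the *spalt* genes and by strain, were compared last. All 8 genes had higher means in He, between 0.01 for *Scr* and 0.35 for *Abd-B*, with a median of 0.18 against 0.01 over all genes. Without He16c 5 of 8 were higher, with a median of 0.04, without He17c 5 of 8, with 0.07, and without WT16ab 6 of 8, with 0.08. The median was 0.31 without He16ab, 0.30 without He17ab and 0.29 without WT16c, with 8 of 8 higher. None was called at an adjusted p under 0.001, against 0.00867% of all tested genes, or under 0.05, against 0.0694%. None had an unadjusted p under 0.05, against 2.99% of all genes, and every adjusted p was 0.9997 (limma, Benjamini-Hochberg adjustment). The voom fit called 0% of all tested genes. The intervals reached 0.65 to 1.37 to either side. For *Dfd* the 3 comparisons gave -0.76 in Ho against WT, -0.84 in Ho against He and 0.08 in He against WT.

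The factors that act with the Hox proteins or keep their genes on or off were read alongside. *exd* and *hth*, which encode the Hox cofactors Extradenticle and Homothorax, were not called between stages, with differences of -0.13 and 0.20. Of the 5 non-Hox genes of the Antennapedia complex that were listed for this report, 3 could be tested. *Ama*, which encodes a secreted immunoglobulin-domain protein, fell by 3.61 at stage 17 averaged over genotypes (adjusted p = 0.000145 with limma), while *bcd* and *ftz*, genes of the early embryo, had differences of 0.52 and 0.79. Of 17 Polycomb group genes, which keep Hox genes silent outside their domains, none was called at 0.001 and 4 had lower values at an adjusted p under 0.05, against 12.6% of all tested genes, with a median of -0.47 against 0.01 over all genes. Of 15 trithorax group genes, which keep Hox genes active, *mor*, a subunit of the Brahma remodelling complex, fell by 1.40 (adjusted p = 0.000216 with limma). Their median was -0.38, with 4 lower at an adjusted p under 0.05, against the same 12.6%. None of these genes was called in Ho against WT or in Ho against He.

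Markers of cell types in which Hox genes are active moved with the stage and with Ho16. Of 8 pan-neuronal markers, *cpx*, which encodes the synaptic protein Complexin, rose by 2.16 at stage 17 (adjusted p = 0.00058 with limma) and 5 were higher at an adjusted p under 0.05, against 23.1% of all genes, while *elav* and *fne*, which encode neuronal RNA-binding proteins, had differences of -0.95 and -0.66. Their summed level was 1414 to 1773 CPM in Ho17, 1219 to 1530 CPM in He17 and 1493 to 1576 CPM in WT17, and 271 to 1693 CPM in Ho16, 997 to 1537 CPM in He16 and 927 to 1066 CPM in WT16. In Ho16a, Ho16b and Ho16c their median deviations were -1.81, -0.56 and 1.16, in the order of the Hox genes, and no marker of this list was at 0 reads in any library. This order was not particular to neurons. The trithorax group had -1.57, -0.34 and 0.26, the Polycomb group -1.09, -0.28 and 0.15, and the glia, muscle and epidermis lists shared the order. Fat body and hemocyte markers had the opposite order, with 0.48, -0.05 and -1.42. All 7 somatic muscle markers were higher at stage 17 at an adjusted p under 0.05, against 23.1% of all genes. None was higher at 0.001, against 12.2%. The summed level of the muscle markers was 35413 to 42136 CPM in Ho17, 40677 to 41262 CPM in He17 and 40280 to 44758 CPM in WT17. At stage 16 it was 15963 to 26469 CPM in Ho16, 23684 to 25139 CPM in He16 and 25206 to 25340 CPM in WT16. Among the other lists, calls at an adjusted p under 0.001 stood against 12.2% higher and 3.02% lower of all genes. *Gs2* of glia (2.75), *Hml* of hemocytes (4.74) and 2 cuticle genes, *Cpr65Ax1* (10.93) and *TwdlB* (10.62), rose. Of 7 epidermal genes 2 fell, among them *knk*, which acts in chitin organization (-2.53). Of 6 glial markers 3 were lower at an adjusted p under 0.05, against 12.6% of all genes. They were *repo* (-0.87), *wrapper* (-0.99) and *loco* (-1.0), and the list median was -0.19. In the list of fat body and hemocytes *Fbp1* and *Pxn* had differences of -0.51 and -0.41. No marker of any list was called in Ho against WT or Ho against He. The part of these cell types in the Hox gene values was not tested.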

How the data were processed

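RNA of 14 pools of *Drosophila* embryos was sequenced (36 or 38-base reads). Per the paper's methods the authors aligned the reads with Bowtie to FlyBase release 5.22, counted them on genes and normalized with DESeq size factors. The deposited values were variance-stabilized and log2-like, with 0 reads at -0.040. Tool versions and any use of strand are not given in the sources used here. No coordinates are given because the annotation (Release 6, Ensembl 115) differs from the authors' release.

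Whole reads were recovered from the steps of these values, and 99.9% of 158533 values above that of 0 reads came within 0.05 of a whole read. Depth per library was the sum of these reads (median 17962658). At the lowest depth, 4746288, a count of 0 allows up to 3 reads, or 0.632 CPM, for counting error only. The count test on recovered reads followed the authors' tool, with variances fitted per condition by locfit 1.5.9.12 and an exact test on negative binomial sums. It called 1319 genes between stages in Ho, 1937 in He and 2088 in WT, and 238 in Ho16 against WT16 and 304 in Ho17 against WT17.

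In R 4.3.3, limma 3.58.1 fitted the deposited values by the means of 6 conditions and moderated variances along a trend (8 residual degrees of freedom, 4.57 prior). P-values were adjusted after Benjamini and Hochberg over all 11530 genes with at least 10 reads at median depth in 2 libraries and 15 in all. Calls needed an adjusted p under 0.001. Both tests were run on simulated reads with large changes between stages and the same dispersion in every library, the count test for WT only. The simulation held no noisier condition such as Ho16 and no length trend, so it cannot show how the tests behave under those. The pools are taken as separate samples, and differences are judged against the spread between them. The experiment letter was not in this fit, so this spread includes the difference between c and ab in He and WT. Summaries used Python 3.11.15, numpy 2.4.6, pandas 2.3.3, scipy 1.17.1 and matplotlib 3.10.9.

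The 8 Hox genes are reported in every comparison. From the lists, up to 3 called genes with the largest changes were named, and the 5 genes most like the mean Hox profile by Pearson r. Members and lists were chosen with earlier results of these data known. Alternatives were no filter, only the conditions compared, the experiment letter as a block, pseudocounts of 1 and 0.1, TMM with voom, library quality weights, an adjusted p under 0.05, each library left out, Ho16a and Ho16c left out, and, added after seeing the data, removal of a gene length trend. Fold changes and p-values in the authors' supplements were not used.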

Additional observations from a re-analysis of the deposited data

How the results depend on the processing

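None of the 8 Hox genes was called at an adjusted p under 0.001 in any of the 10 comparisons under any alternative run, nor at 0.05 in the limma fit described. At 0.05 there were 2 between stages in Ho with library quality weights, with a lowest adjusted p of 0.0158 for *lab*, and 3 without Ho16c. At 0.001 these 2 settings called 17.4% and 13.3% of all tested genes, so their shares at 0.05 were at least as large. Calls among all genes ranged over the alternatives between 1254 and 4117 for the stages averaged over genotypes (1749 in the limma fit), 115 and 3144 in Ho (920), 37 and 1937 in He (346), 0 and 2088 in WT (389), 0 and 69 in Ho against WT (3), 0 and 304 at stage 17 (1), 0 and 238 at stage 16 (1), 0 and 13 in Ho against He (0), and 0 and 8 in He against WT (1). The single differences were less stable. Of 1952 alternative values of the 80 differences (8 genes in 10 comparisons), 92 had the opposite sign, and 40 of these came from settings other than leaving out 1 library. None of these passed the threshold, and the cause was not tested. The length trend moved the median of all genes between stages to -0.35, so its values are read against that. The block compares Ho with He and WT only through letter c, taken as the same experiment in these genotypes. With the experiment letter as a block the reversed differences were *Antp* 0.057, *abd-A* 0.55, *Ubx* 0.61 and *Abd-B* 0.56 in Ho against WT averaged over stages, *abd-A* 0.062, *Ubx* 0.029, *Abd-B* 0.060 and *lab* 0.20 in Ho16 against WT16, *Antp* 0.26 in Ho17 against WT17, and *abd-A* 0.21, *Ubx* 0.42, *Abd-B* 0.22 and *lab* 0.36 in Ho against He. With TMM factors and voom weights the reversed differences were *pb* -0.088 between stages averaged over genotypes, *Antp* -0.16 between stages in Ho, *Abd-B* -0.049 and *pb* -0.071 between stages in WT, and *abd-A* 0.020 and *Ubx* 0.0036 in Ho against WT averaged over stages. With library quality weights the reversed differences were *Antp* -0.035 and *Dfd* -0.13 between stages in Ho. In the exact negative binomial test the reversed differences were *Antp* -0.21 and *abd-A* -0.0045 between stages in Ho, *lab* 0.046 between stages in WT, and *abd-A* 0.075 in Ho16 against WT16. Without Ho16a and Ho16c, which leaves 1 Ho16 library assumed to vary like the other conditions, the reversed differences were *Antp* -0.11 and *Dfd* -0.19 between stages in Ho. After removal of the gene length trend the reversed differences were *Abd-B* -0.33 and *pb* -0.22 between stages averaged over genotypes, *Antp* -0.76, *Abd-B* -0.069, *Dfd* -0.033 and *pb* -0.18 between stages in Ho, *Abd-B* -0.49 and *pb* -0.16 between stages in WT, *abd-A* 0.20, *Ubx* 0.073 and *Abd-B* 0.17 in Ho against WT averaged over stages, and *Antp* -0.068 and *pb* -0.016 in the stage difference of Ho against that of WT.

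Leaving out 1 library, with the lone library of a condition assumed to vary like the others, reversed 31 differences in some omission. Between stages averaged over genotypes the ranges were -0.51 to 0.054 for *Antp*, -0.43 to 0.23 for *abd-A* and -0.048 to 0.11 for *pb*. Between stages in Ho the ranges were -0.78 to 0.93 for *Antp*, -0.27 to 1.70 for *abd-A* and -0.23 to 1.21 for *Ubx*. Between stages in He the ranges were -0.49 to 0.12 for *Abd-B*, -0.059 to 0.41 for *lab* and -0.41 to 0.033 for *pb*. Between stages in WT the ranges were -0.58 to 0.026 for *Antp*, -0.72 to 0.10 for *abd-A*, -0.075 to 0.17 for *Abd-B*, -0.77 to 0.65 for *lab* and -0.078 to 0.13 for *pb*. In Ho against WT averaged over stages the ranges were -0.56 to 0.43 for *abd-A*, -0.46 to 0.26 for *Ubx*, -0.62 to 0.17 for *Abd-B* and -0.17 to 0.54 for *lab*. In Ho16 against WT16 the ranges were -1.56 to 0.41 for *abd-A*, -1.40 to 0.038 for *Ubx* and -1.51 to 0.066 for *Abd-B*. In Ho17 against WT17 the ranges were -0.070 to 0.46 for *Scr* and -0.036 to 1.39 for *lab*. In Ho against He they were -0.90 to 0.082 for *abd-A* and -0.66 to 0.065 for *Ubx*. In He against WT they were -0.022 to 0.34 for *Antp*, -0.17 to 0.20 for *Scr*, -0.058 to 0.44 for *Ubx*, -0.020 to 0.69 for *lab* and -0.0071 to 0.18 for *Dfd*. In the stage difference of Ho against that of WT the range was -0.50 to 1.21 for *Antp*.

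By the correlation of deviations the replicate letters did not pair the Ho libraries across stages, with 0.02, 0.03 and 0.12 for a, b and c. Same-letter libraries of He and WT deviated together, at 0.32 in He and 0.30 in WT across stages and between 0.15 and 0.34 across genotypes. There the block left the estimates as they were, with 346 genes called between stages in He, 384 in WT and 1 in He against WT. With the letter as a block 0 Hox genes were called in each comparison. Of all tested genes the block called 15.7% between stages averaged over genotypes and 0% in Ho against WT averaged over stages. The negative binomial test was run on pairs of conditions only. Depth limits *pb* and *Dfd* most, with 24 and 28 reads in Ho16a.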
